A study of Rattus norvegicus with 288 samples.

Results

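The hearts of rats given Sorafenib by mouth and examined 24 h later are described here, against hearts of rats given the oral vehicle alone. They were found by the tissue, the time and the second agent in their labels, which gave 16 of the 288 arrays of the series: 8 hearts after Sorafenib (25 mg/kg po) and 8 after F68/PG/PEG400, a mixture of Pluronic F68, propylene glycol and polyethylene glycol. All 16 were from male Sprague-Dawley rats of 7 to 8 weeks with an indwelling femoral vein cannula, and 30 min before the oral dose every rat had received an intravenous first agent. The first agent was Temsirolimus (0.3 mg/kg), an mTOR inhibitor, or its vehicle (TEM_vehicle), so that 4 rats had Temsirolimus then Sorafenib, 4 had TEM_vehicle then Sorafenib, 4 had Temsirolimus then F68/PG/PEG400 and 4 had TEM_vehicle then F68/PG/PEG400. The tissue was the apex of the heart with left and right ventricles of each rat. The series measured the transcriptomes of heart, liver and bone marrow of 96 rats on Affymetrix rat genome arrays at 1, 6 and 24 h after a single dose. Values are log2 signals after RMA normalization, so that a difference of 1 is a doubling of signal, and the signals of different genes are not compared because probe sets differ in response.

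Sorafenib is a kinase inhibitor used against kidney, liver and thyroid cancer. It binds RAF kinases and the receptors for vascular endothelial growth factor (VEGF), platelet-derived growth factor and several other ligands, and raised blood pressure and cardiac events are known from its clinical use. The heart holds muscle cells, a dense bed of capillaries that depend on VEGF signals, pericytes, fibroblasts and resident macrophages. Many resident macrophages lie beside vessels, carry the receptors Lyve1, Folr2, Mrc1 and Cd163, and depend on the receptor kinase Csf1r.

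Cardiac muscle transcripts were high in all 16 hearts, and the groups overlapped. The mean of 15 cardiac muscle markers, among them Tnnt2, Tnni3 and Myh6, was between 14.27 and 14.32 after Sorafenib and between 14.21 and 14.35 after F68/PG/PEG400. The 3′ to 5′ signal ratio of Gapdh, a sign of RNA integrity, was between 1.07 and 1.21 after Sorafenib and between 1.08 and 1.32 after F68/PG/PEG400, and that of Actb was between 1.39 and 1.70 after Sorafenib and between 1.52 and 2.24 after F68/PG/PEG400. The Actb ratio of 4 F68/PG/PEG400 hearts was above that of every Sorafenib heart, and its part in the results was not tested. All samples had an RNA integrity number of at least 7.5 per the labels. Some hearts held liver transcripts: the mean of 14 hepatocyte markers was 8.33, 8.99, 10.03 and 8.65 in 4 Sorafenib hearts (8M89, 8M90, 6M65 and 6M66) and 12.30 in 1 F68/PG/PEG400 heart (4M42), while the other 11 hearts lay between 6.07 and 6.62. All 5 hearts belonged to the first array set, the 2 lower rat numbers of each group, and the change at 24 h of each list and of each list gene that passed was therefore also computed without them and within each array set. The 4 were all the Sorafenib hearts of that set, so the fit without the 5 holds only second-set Sorafenib hearts at 24 h. It leans on the array set term and is not separate from the second array set alone. The paper states that dosing took 2 consecutive days, with 2 rats of each dose group on each day. Whether the array sets follow these days is not given in the sources used here, so array set and dosing day cannot be told apart. A call lost without the 5 hearts or within an array set is given with the gene. Arrays of rats 8M95 and 8M96 carried another number in the study's array names than the other hearts of the second set, and the counts are also given without them.

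Sorafenib was followed at 24 h mainly by lower signals. Of 14218 genes, 295 fell (2.07%) and 44 rose (0.309%) in Sorafenib hearts against F68/PG/PEG400 hearts, averaged over first agents (limma, Benjamini-Hochberg adjusted p under 0.05), and the median change over all genes was -0.02. After quantile normalization within the tissue was repeated, 203 fell and 63 rose. In 99 genes (0.696%) all 8 Sorafenib hearts were below all 8 F68/PG/PEG400 hearts and in 5 (0.0352%) all were above, of which 84 and 4 also passed the test. The count of 339 genes that passed was 127 (115 fell, 12 rose) without the 5 hearts with liver transcripts and 133 (110 fell, 23 rose) without 8M95 and 8M96. It was 27 in the first array set alone and 178 in the second alone, with 27 and 145 of these among the 339. With 1 heart left out it was between 185 and 427, and it was more than 1.5 times lower without 2M23 (185), 4M48 (199), 8M95 (214) or 6M72 (215).

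Of the 12 largest falls without overlap, 8 were in macrophage markers. Of 17 macrophage markers measured, 15 fell and none rose, all 17 changes were negative, and their median was -0.96. Over all genes 2.07% fell, 8304 of 14218 changes were negative, and the median was -0.02. In bulk tissue, fewer cells of a type and less RNA per cell cannot be told apart. The mean signal of the 17 markers was 7.28 ± 0.20 after Sorafenib and 8.33 ± 0.23 after F68/PG/PEG400 (SD, n = 8 each), and the highest Sorafenib heart (7.51) was below the lowest F68/PG/PEG400 heart (8.08). The number of markers that fell was 11 in the first array set alone and 14 in the second alone, 13 without the 5 hearts with liver transcripts, 13 without 8M95 and 8M96, and 13 to 15 with 1 heart left out. The median change of the list was between -0.81 and -1.17 over these alternatives.

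F13a1, the A subunit of coagulation factor XIII, which tissue macrophages also make, had the largest fall. Its signal after Sorafenib was 5.81, 6.43, 6.72 and 6.23 in Temsirolimus rats and 6.38, 6.47, 6.58 and 6.75 in TEM_vehicle rats. After F68/PG/PEG400 it was 8.34, 8.71, 8.37 and 8.71 in Temsirolimus rats and 8.40, 8.21, 9.11 and 8.56 in TEM_vehicle rats. The highest Sorafenib heart was thus well below the lowest F68/PG/PEG400 heart, and the groups did not overlap. The change was -2.13 ± 0.16 (SE), or 4.38-fold lower, with a limma adjusted p of 2.97e-17, and it was -2.14 in the first array set and -2.12 in the second. A second, dimmer probe set of F13a1 changed by -0.999.

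The scavenger and endocytosis receptors of resident macrophages fell together. Lyve1, a hyaluronan receptor of these macrophages and of lymphatic vessels, had a lowest, median and highest signal of 8.00, 8.13 and 8.51 after Sorafenib and of 9.20, 9.53 and 10.16 after F68/PG/PEG400, a change of -1.43 ± 0.13 (limma adjusted p = 3.53e-13). Mrc1, the mannose receptor, was at 7.34, 8.02 and 8.36 after Sorafenib and at 9.01, 9.33 and 9.80 after F68/PG/PEG400, a change of -1.41 ± 0.12 (limma adjusted p = 9.9e-15). Neither gene's groups overlapped. Stab1 (stabilin, -0.99), Folr2 (folate receptor beta, -0.93) and Cd163 (hemoglobin scavenger receptor, -0.96) fell about 2-fold, and the groups overlapped for Cd163 alone among these. Csf1r, the receptor that maintains macrophages and itself a kinase that sorafenib binds, was at 8.03, 8.35 and 8.62 after Sorafenib and at 9.02, 9.15 and 9.51 after F68/PG/PEG400. Its change was -0.86 ± 0.09, with a limma adjusted p of 9.22e-11 and no overlap.

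The 3 chains of complement C1q, which tissue macrophages produce, fell by similar amounts. C1qa was at 7.91, 8.34 and 8.81 after Sorafenib and at 9.28, 9.73 and 9.98 after F68/PG/PEG400, a change of -1.30 ± 0.15. C1qb changed by -1.38 ± 0.16 and C1qc by -1.28 ± 0.14, and the largest adjusted p of the 3 in the limma fit was 6.43e-10. The Sorafenib and F68/PG/PEG400 hearts overlapped for none of them. Fcgr1a, the high-affinity IgG receptor, changed by -0.91 and Adgre1, a surface receptor used to stain macrophages, by -0.87, again without overlap. Aif1, a calcium-binding protein of macrophages, changed by -1.59 ± 0.19 (limma adjusted p = 6.26e-09) on the brighter probe set and by 0.04 on the other.

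A few macrophage markers changed less or did not pass. Cd68 (-0.57) and Cd14 (-0.58) fell with overlapping groups, and the call was lost without 4M48 for Cd68 and without any 1 of 11 hearts for Cd14. Neither passed in the first array set alone, without the 5 hearts with liver transcripts, or without 8M95 and 8M96, and Cd163 and Fcgr1a did not pass in the first array set alone. Ms4a7 changed by -0.58, with an adjusted p of 0.082 in the limma fit although its groups did not overlap. Cx3cr1, the fractalkine receptor of monocyte-derived cells, was at 5.82, 6.00 and 6.04 after Sorafenib and at 5.81, 6.07 and 6.42 after F68/PG/PEG400, a change of -0.11 ± 0.07 (limma adjusted p = 0.55). The lists of other blood cells showed no call: none of 12 T, NK and B cell markers (median change -0.04), 8 neutrophil markers (0.04) or 9 erythroid markers (0.03) passed. Over all genes 2.07% fell and 0.309% rose, and at those shares lists this small hold few calls. The T, NK and B cell markers were low in signal, with a mean of 6.53 after Sorafenib and 6.56 after F68/PG/PEG400. The neutrophil markers were also low, at 6.20 and 6.22, so that a fall could be missed.

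**Figure D1:**
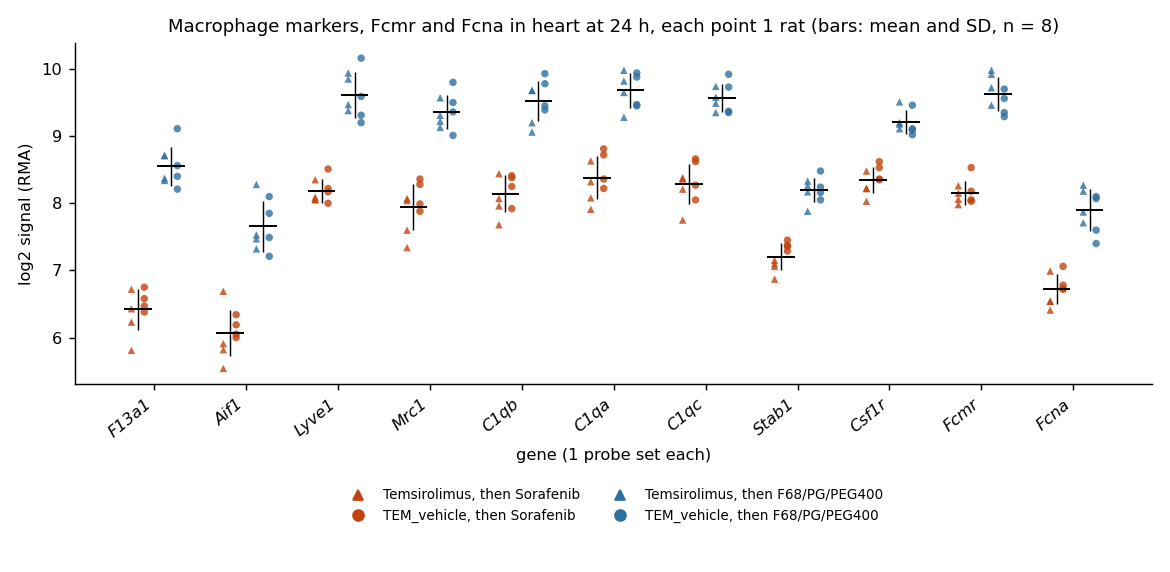
Log2 signal (y axis) of 9 macrophage markers, Fcmr and Fcna in each of 16 hearts at 24 h, Sorafenib rats left of F68/PG/PEG400 rats within each gene, with triangles for Temsirolimus, circles for TEM_vehicle and bars for the mean and SD of 8 hearts. F13a1 lay between 5.81 and 6.75 after Sorafenib and between 8.21 and 9.11 after F68/PG/PEG400.

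The promoters of these genes are shown because the genes moved together. A promoter here is the 250 bases before the start of a gene in RefSeq (build GRCr8), printed 5′ to 3′ on the gene's strand, and 12 of the 15 macrophage markers that fell had one. The motif searched was GAGGAA, the core bound by the myeloid factor PU.1, on both strands (TTCCTC on the other), with no other motif searched. Capitals mark each match. It was found in 8 of these 12 promoters, in 23.3% of all 33469 promoters of the table and in 23.1% of the 13243 promoters of genes tested. A match is a description of the letters and not a site of binding. F13a1 (chr17:28020947-28021196, plus strand) has 1 match, which begins 7 bases before the start. C1qb (chr5:154407828-154408077, minus strand) and Mrc1 (chr17:82157475-82157724, plus strand) have 2 each, while C1qa (chr5:154419934-154420183, minus strand), which fell as far as C1qb, has none.
F13a1: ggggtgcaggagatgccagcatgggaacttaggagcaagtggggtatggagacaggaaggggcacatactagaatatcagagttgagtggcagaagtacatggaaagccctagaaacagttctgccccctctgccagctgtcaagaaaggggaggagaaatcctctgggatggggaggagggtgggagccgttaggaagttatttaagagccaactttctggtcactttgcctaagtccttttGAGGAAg
C1qb: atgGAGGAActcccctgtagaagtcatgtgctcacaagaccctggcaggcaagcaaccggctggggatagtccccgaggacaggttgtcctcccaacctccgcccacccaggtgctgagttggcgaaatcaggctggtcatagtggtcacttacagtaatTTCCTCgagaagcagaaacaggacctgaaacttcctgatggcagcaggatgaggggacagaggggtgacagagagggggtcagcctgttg
Mrc1: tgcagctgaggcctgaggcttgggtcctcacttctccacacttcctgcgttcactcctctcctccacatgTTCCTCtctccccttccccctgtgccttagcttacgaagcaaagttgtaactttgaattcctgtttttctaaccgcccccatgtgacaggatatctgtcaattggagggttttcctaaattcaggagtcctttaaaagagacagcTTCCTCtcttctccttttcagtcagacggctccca
C1qa: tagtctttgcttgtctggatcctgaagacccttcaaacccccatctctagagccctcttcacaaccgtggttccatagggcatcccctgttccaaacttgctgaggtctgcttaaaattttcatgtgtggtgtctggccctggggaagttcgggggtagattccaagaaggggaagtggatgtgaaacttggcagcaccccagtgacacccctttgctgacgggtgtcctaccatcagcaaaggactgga

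Other genes with large falls were not on the macrophage list. Fcmr, a receptor for the Fc part of IgM that is best known from B cells, had the smallest adjusted p of the genes named. Its signal after Sorafenib was 8.15, 8.26, 8.06 and 7.98 in Temsirolimus rats and 8.03, 8.53, 8.18 and 8.05 in TEM_vehicle rats, and after F68/PG/PEG400 it was 9.46, 9.98, 9.72 and 9.92 in Temsirolimus rats and 9.29, 9.35, 9.56 and 9.70 in TEM_vehicle rats. No Sorafenib heart came near an F68/PG/PEG400 heart, and the change was -1.47 ± 0.09 (limma adjusted p = 1.08e-20). The B cell genes Ms4a1 (-0.02) and Cd79b (0.10) did not pass. Their signals were low, with Ms4a1 at 5.80 after Sorafenib and 5.82 after F68/PG/PEG400, and Cd79b at 6.59 and 6.50. Fcna (ficolin A, a lectin of the complement system, -1.18 ± 0.15), Rbp7 (a cellular retinol-binding protein, -1.17 ± 0.14) and Fxyd2 (a regulatory subunit of the sodium pump, -1.07 ± 0.17) also fell without overlap, with limma adjusted p of 3.91e-08, 4.7e-09 and 1.7e-05, although Fxyd2 had no call in the first array set alone. Pilra, an inhibitory receptor of myeloid cells, was at 6.15, 6.92 and 7.34 after Sorafenib and at 6.57, 8.39 and 9.28 after F68/PG/PEG400, so that its groups overlapped. It changed by -1.49 ± 0.32 (limma adjusted p = 0.0018), and its call was lost in the first array set alone and without 8M95 and 8M96.

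Among the kinases that sorafenib binds, 2 of 13 measured fell and none rose, against 2.07% and 0.309% of all genes. One was Csf1r. The other was Kdr, the main VEGF receptor of endothelial cells. After Sorafenib the Kdr signal was 10.26, 10.13, 10.16 and 10.25 in Temsirolimus rats and 10.27, 10.16, 10.06 and 10.11 in TEM_vehicle rats. After F68/PG/PEG400 it was 10.88, 10.93, 10.70 and 10.78 in Temsirolimus rats and 10.71, 10.68, 10.74 and 10.81 in TEM_vehicle rats. The 8 Sorafenib hearts were all lower, and the change was -0.60 ± 0.11, or 1.52-fold, with a limma adjusted p of 9.56e-05. It was -0.59 in the first array set, where it did not pass (limma adjusted p = 0.099), and -0.61 in the second. A second, dimmer probe set of Kdr (mean heart signal 5.01) changed by -0.07. Of the 11 that did not pass, the VEGF receptors Flt1 (0.21, and -0.04 and -0.26 on its other probe sets) and Flt4 (-0.07), the platelet-derived growth factor receptors Pdgfra (-0.16) and Pdgfrb (-0.08), and Kit (0.02), Flt3 (-0.00), Ret (0.02), Fgfr1 (-0.09), Ddr1 (0.09), Ddr2 (-0.07) and Araf (0.05) had limma adjusted p between 0.338 and 0.995.

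Of 15 ligands and coreceptors of these pathways, 2 fell and 1 rose, against 2.07% and 0.309% of all genes. Nrp2, a coreceptor for VEGF of veins and lymphatic vessels, was at 8.41, 8.71 and 9.22 after Sorafenib and at 9.15, 9.67 and 9.95 after F68/PG/PEG400, a change of -0.87 ± 0.14 (limma adjusted p = 1.96e-05) with overlapping groups. Its dimmer probe set (mean heart signal 5.44) changed by -0.13. Kitlg, stem cell factor and the ligand of Kit, was at 9.91, 10.01 and 10.20 after Sorafenib and at 10.53, 10.56 and 10.73 after F68/PG/PEG400, a change of -0.56 ± 0.10 (limma adjusted p = 0.000105) without overlap, while its 3 other probe sets changed by -0.07 to -0.21. Neither passed in the first array set alone. Angpt1, which steadies vessels through the receptor Tek, changed by 0.72 ± 0.16 (limma adjusted p = 0.00532) with overlapping groups, and its call was lost in either array set alone and without the 5 hearts with liver transcripts. Vegfa changed by 0.17 ± 0.13 (limma adjusted p = 0.639), and Csf1, the ligand of Csf1r, by 0.04 ± 0.06 (limma adjusted p = 0.89).

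Of 18 genes of endothelial tip cells and VEGF response, 4 fell and 1 rose, against 2.07% and 0.309% of all genes. Esm1, a proteoglycan that marks tip cells and responds to VEGF, was at 5.42, 5.70 and 6.31 after Sorafenib and at 6.03, 6.86 and 7.62 after F68/PG/PEG400, a change of -1.01 ± 0.20 (limma adjusted p = 0.000914) with overlapping groups and no call in the first array set alone. Nid2, a basement membrane protein, changed by -0.70 ± 0.14 (limma adjusted p = 0.000937), with no call in either array set alone or without the 5 hearts with liver transcripts. Unc5b, a netrin receptor of endothelium, changed by -0.44 without overlap, and its call was lost without any 1 of 11 hearts, in either array set alone, without the 5 hearts with liver transcripts, and without 8M95 and 8M96. The gene that rose was Rcan1, a calcineurin inhibitor that VEGF and calcium induce and that heart muscle also makes. Its signal after Sorafenib was 12.46, 12.01, 12.46 and 12.34 in Temsirolimus rats and 12.15, 12.41, 12.39 and 12.40 in TEM_vehicle rats. After F68/PG/PEG400 it was 11.17, 11.60, 11.28 and 11.32 in Temsirolimus rats and 11.44, 12.39, 11.20 and 11.51 in TEM_vehicle rats. One F68/PG/PEG400 heart, 2M18, lay at the Sorafenib level and the other 7 below all Sorafenib hearts, and the change was 0.84 ± 0.15 (limma adjusted p = 0.000158), with no call in the first array set alone.

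Of 23 endothelial markers 4 fell, against 2.07% of all genes, and none rose, while the median change was -0.08 against -0.02 over all genes. Pcdh17, a protocadherin, was at 6.71, 6.87 and 7.16 after Sorafenib and at 7.57, 7.76 and 8.24 after F68/PG/PEG400, a change of -0.92 ± 0.10 (limma adjusted p = 3.26e-10), and its 2 other probe sets changed by -1.34 and -1.06. Bcl6b, an endothelial repressor, changed by -0.63 ± 0.10 (limma adjusted p = 2.53e-05), with 3 further probe sets between -0.60 and -0.62, and had no call in the second array set alone. The groups overlapped for neither. Hlx, a homeobox factor of endothelium, was at 8.45, 8.27, 8.35 and 8.26 after Temsirolimus and Sorafenib and at 8.10, 8.18, 8.22 and 8.38 after TEM_vehicle and Sorafenib. It was at 8.78, 8.77, 8.78 and 8.96 after Temsirolimus and F68/PG/PEG400 and at 8.61, 8.75, 8.85 and 8.61 after TEM_vehicle and F68/PG/PEG400, so that the groups were again separate (change -0.49 ± 0.06, limma adjusted p = 6.03e-08). Egfl7 changed by -0.22 with overlapping groups, and by -0.06 on its other probe set. Its call was lost without 8M95, 8M96, 2M23 or 4M42, in either array set alone and without the 5 hearts with liver transcripts. The pan-endothelial genes Pecam1 (-0.08), Vwf (0.18) and Tek (0.14) did not pass. The mean of the 23 endothelial markers was 9.47 ± 0.04 after Sorafenib, between 9.39 and 9.53, and 9.58 ± 0.08 after F68/PG/PEG400, between 9.46 and 9.69 (SD, n = 8 each), and its part in the changes of Kdr, Esm1 and other vascular genes was not tested.

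**Figure D2:**
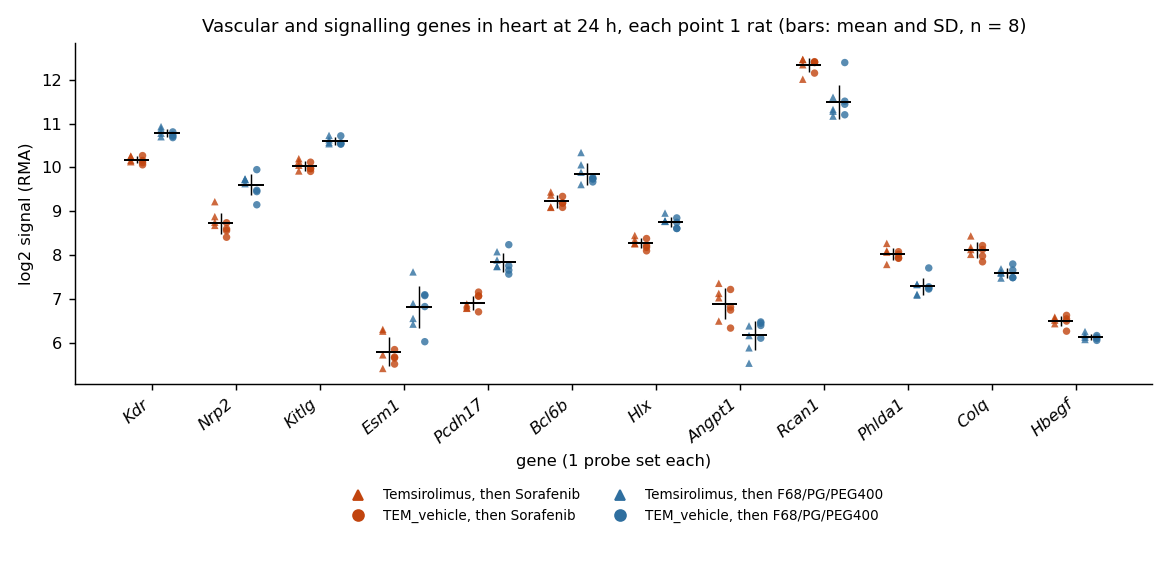
Log2 signal (y axis) of 12 vascular and signalling genes in each of 16 hearts at 24 h, Sorafenib rats left of F68/PG/PEG400 rats, with triangles for Temsirolimus, circles for TEM_vehicle and bars for the mean and SD of 8 hearts. Kdr lay between 10.06 and 10.27 after Sorafenib and between 10.68 and 10.93 after F68/PG/PEG400, and for Rcan1 1 F68/PG/PEG400 heart (12.39) lay among the Sorafenib hearts.

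Of 12 pericyte and smooth muscle markers, Cspg4 (the NG2 proteoglycan of pericytes, -0.41 ± 0.08, limma adjusted p = 0.000352) and Mcam (-0.48 ± 0.13, limma adjusted p = 0.0258) fell, none rose, 9 changes were negative and the median was -0.08. Over all genes 2.07% fell and 8304 of 14218 changes were negative. The 10 markers that did not pass lay between -0.26 (Mylk, a kinase of smooth muscle contraction) and 0.06 (Notch3, a receptor of mural cells). The mean of the 12 markers was 8.67 ± 0.06 after Sorafenib and 8.80 ± 0.04 after F68/PG/PEG400 (SD, n = 8 each), and the highest Sorafenib heart (8.74) was level with the lowest F68/PG/PEG400 heart (8.74). The part of this shift in the changes of single vascular genes was not tested. The call of Cspg4 was lost in either array set alone, and that of Mcam there, without the 5 hearts with liver transcripts, without 8M95, 2M17, 2M23, 6M65 or 4M41, and on its other probe set, which changed by -0.09. None of 12 fibroblast markers passed (median -0.11). Of 29 matrix genes, Adamts9, a protease that trims matrix proteoglycans, was at 7.67, 7.83 and 8.07 after Sorafenib and at 8.17, 8.44 and 8.75 after F68/PG/PEG400, a change of -0.60 ± 0.09 (limma adjusted p = 2.07e-06) without overlap, whereas its dimmer probe set changed by 0.03. Lamb1, a laminin chain of basement membranes, changed by -0.35 ± 0.09 (limma adjusted p = 0.01) without overlap, and its call was lost in either array set alone, without the 5 hearts with liver transcripts, and without 8M95 and 8M96.

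RAF kinases act through ERK, which induces a set of immediate early genes and its own inhibitors. Of 19 such genes 3 fell and 1 rose, against 2.07% and 0.309% of all genes. Spry4, a feedback inhibitor of receptor kinases, was at 7.88, 8.03 and 8.27 after Sorafenib and at 8.31, 8.36 and 8.55 after F68/PG/PEG400, a change of -0.38 ± 0.06 (limma adjusted p = 1.96e-05) without overlap. Egr1, an immediate early transcription factor, changed by -0.79 ± 0.16 (limma adjusted p = 0.00113) with overlapping groups and no call in either array set alone. Etv4 changed by -0.26, and by 0.05 on its other probe set. Its call was lost without any 1 of 11 hearts, in either array set alone, without the 5 hearts with liver transcripts, and without 8M95 and 8M96. Dusp6, the ERK phosphatase, changed by -0.90 ± 0.42 and did not pass (limma adjusted p = 0.317).

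Phlda1 rose, and is known both as an early response gene and as a marker of stress. Its signal after Sorafenib was 8.10, 7.79, 8.27 and 8.07 in Temsirolimus rats and 7.94, 8.02, 8.08 and 7.93 in TEM_vehicle rats, and after F68/PG/PEG400 it was 7.11, 7.33, 7.34 and 7.09 in Temsirolimus rats and 7.28, 7.71, 7.23 and 7.25 in TEM_vehicle rats. All 8 Sorafenib hearts were higher, by 0.73 ± 0.12 on average (1.66-fold, limma adjusted p = 3.36e-05), with no call in the first array set alone. Colq, the collagen tail that anchors acetylcholinesterase at synapses, was at 7.85, 8.13 and 8.44 after Sorafenib and at 7.48, 7.60 and 7.80 after F68/PG/PEG400, a change of 0.51 ± 0.07 (limma adjusted p = 1.73e-07). Mamdc2, a matrix protein, changed by 0.43 ± 0.10 and Hbegf, a ligand of the epidermal growth factor receptor, by 0.37 ± 0.08, with limma adjusted p of 0.00359 and 0.00364. These 4 were the genes that rose without overlap. The call of Colq was lost in the first array set alone, that of Mamdc2 also without 8M95 and 8M96, and that of Hbegf in the first set and without the 5 hearts with liver transcripts.

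Of 17 genes of cardiac stress, 3 rose and none fell, against 0.309% and 2.07% of all genes. Tnfrsf12a, the receptor of the cytokine TWEAK, was at 8.53, 9.01 and 9.54 after Sorafenib and at 7.75, 8.26 and 8.71 after F68/PG/PEG400, a change of 0.69 ± 0.16 (limma adjusted p = 0.00665). Ccn2, connective tissue growth factor, changed by 0.62 ± 0.16 (limma adjusted p = 0.0162) and Ankrd1, a stretch-responsive protein of the sarcomere, by 0.24 ± 0.07 (limma adjusted p = 0.0422). All 3 had overlapping groups, and none passed in either array set alone, without the 5 hearts with liver transcripts, or without 8M95 and 8M96. The call of Ccn2 was lost without 8M96, 2M17, 2M24, 6M65 or 4M41, and that of Ankrd1 without any 1 of 13 hearts. Edn1, endothelin, a vasoconstrictor made by endothelium, rose by 0.45 ± 0.08 (limma adjusted p = 0.000136) and had no call in the first array set alone. The natriuretic peptides Nppa (0.38 ± 0.28, limma adjusted p = 0.627) and Nppb (0.47 ± 0.16, limma adjusted p = 0.123) did not pass.

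All 24 cell proliferation genes had negative changes (median -0.31), and 4 of them fell. Over all genes 8304 of 14218 changes were negative and 2.07% of genes fell. Top2a, a topoisomerase of dividing cells, was at 6.88, 7.18 and 7.63 after Sorafenib and at 7.21, 7.74 and 8.48 after F68/PG/PEG400, a change of -0.65 ± 0.18 (limma adjusted p = 0.0325), and of -0.24 on its dimmer probe set. Cdk1 (-0.81), Ccna2 (-0.78) and Pcna (-0.22) were the others, with limma adjusted p of 0.0455, 0.0244 and 0.0376. The groups overlapped in all 4, none of the 24 passed without the 5 hearts with liver transcripts or without 8M95 and 8M96, and the 4 calls were each lost without any 1 of 6 to 14 hearts. Of 14 genes of cholesterol synthesis, uptake and export (median -0.26), Idi1 (-0.84), Sqle (-0.53) and Stard4 (-0.32), which act in synthesis and transport, and Srebf2 (-0.30), the transcription factor that governs them, fell, with limma adjusted p between 0.00105 and 0.0422. Of the 14 changes 11 were negative, and the highest of the others was 0.72, which did not pass. Other probe sets changed by -0.55 for Idi1, by -0.05 and -0.13 for Stard4 and by 0.03 for Srebf2. The groups did not overlap for Idi1 and Sqle, the call of Sqle was lost without any 1 of 11 hearts, and none of the 14 passed without the 5 hearts with liver transcripts. The hepatocyte markers, high in those hearts, had a median change of 0.45 and none of 14 passed. Without those hearts their median change was 0.53, in a fit that leans on the array set term. In the second array set alone it was -0.13. With the hepatocyte marker level as a covariate, 4 proliferation genes fell (median -0.31) and 5 cholesterol genes fell (median -0.31). Without the 5 hearts the median change was -0.30 for proliferation and -0.17 for cholesterol genes, with Top2a at -0.64, Cdk1 at -0.79 and Idi1 at -0.76. In each of these lists no gene passed in the first array set alone and 1 in the second, and 2 cholesterol genes passed without 8M95 and 8M96.

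Interferon-stimulated genes had mostly positive changes, 18 of 19 with a median of 0.29, but only Ifit3, an antiviral protein, passed (0.81 ± 0.22, limma adjusted p = 0.0298), and its call was lost without any 1 of 7 hearts, in either array set alone and without the 5 hearts with liver transcripts. Over all genes 8304 of 14218 changes were negative, 0.309% of genes rose and 2.07% fell. Mlycd, which lowers malonyl-CoA and so frees fatty acid oxidation, rose by 0.25 ± 0.06 (limma adjusted p = 0.0103) as the only one of 23 genes of that pathway, and Sgk1 fell by 0.36 ± 0.09 (limma adjusted p = 0.0103) as the only one of 18 glucocorticoid-responsive genes. Neither passed in the first array set alone or without the 5 hearts with liver transcripts, and Sgk1 did not pass in the second array set alone. Txnip, which restrains thioredoxin and glucose uptake, changed by 0.42, and its call was lost without any 1 of 12 hearts, in either array set alone, without the 5 hearts with liver transcripts, and without 8M95 and 8M96. No gene passed among 17 ion channel and calcium handling genes, 25 respiratory chain subunits, 24 glycolysis and hypoxia genes, 16 xenobiotic enzymes, 16 NRF2 targets, 24 ATF4 targets, 13 heat shock genes or 9 adipocyte markers. At the shares over all genes, lists of this size hold few calls, so these counts are no result about the lists.

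The changes were also set side by side for the 2 first agents, since no array is shared between them. After Temsirolimus 122 genes (0.858%) passed, 105 lower and 17 higher in Sorafenib hearts, and after TEM_vehicle 50 (0.352%), 46 lower and 4 higher. After repeated quantile normalization the count after Temsirolimus was 88, 65 lower and 23 higher. All 339 genes called over both first agents had changes of the same sign after each. They were selected on the average of these 2 changes, which itself favours a shared sign. The 37 genes called after both were 30.3% of those called after Temsirolimus and 74% of those called after TEM_vehicle. F13a1 changed by -2.23 after Temsirolimus and by -2.03 after TEM_vehicle, Fcmr by -1.66 and -1.28, and Kdr by -0.62 and -0.59. The test of the difference between first agents called none of 14218 genes (0%) in the limma fit, and 419 had an unadjusted p under 0.05. The largest such difference among the genes named was 0.58 for Angpt1, which changed by 1.01 after Temsirolimus and by 0.42 after TEM_vehicle. With 4 hearts a group, single hearts moved these counts: after Temsirolimus 51 genes passed without 6M65 or without 6M72, 52 without 4M48, 75 without 4M41 and 77 without 4M42, and after TEM_vehicle 20 passed without 2M23 or without 8M95 and 31 without 2M24.

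**Figure D3:**
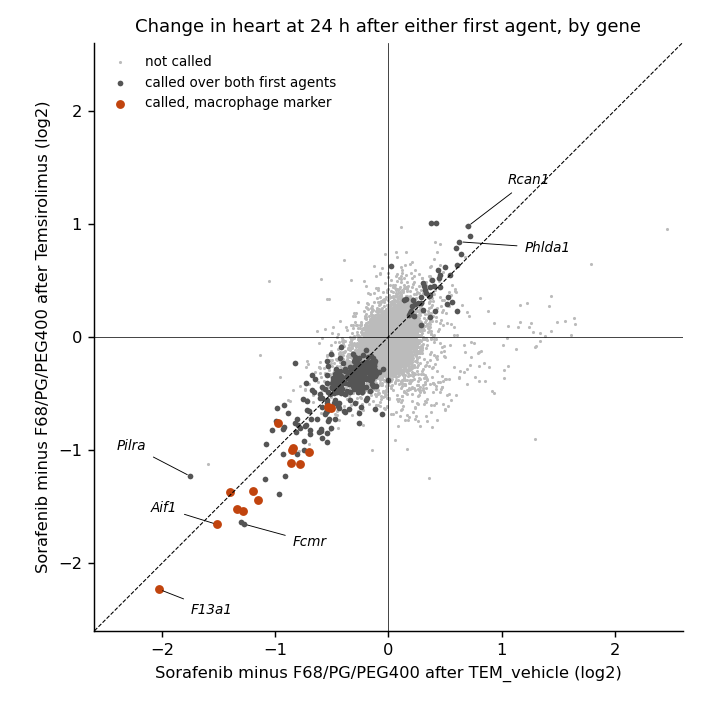
Change in log2 signal, Sorafenib minus F68/PG/PEG400, of 14218 genes after Temsirolimus (y axis) against after TEM_vehicle (x axis) in heart at 24 h, with genes called over both first agents dark, called macrophage markers in orange and the line of equal change dashed. F13a1 is at -2.23 and -2.03, Phlda1 at 0.84 and 0.63.

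Hearts at 1 and 6 h came from other rats of the same treatments, and each time had its own F68/PG/PEG400 hearts. The mean of the 17 macrophage markers after Sorafenib was 8.39 ± 0.24 at 1 h, 7.77 ± 0.09 at 6 h and 7.28 ± 0.20 at 24 h, against 8.10 ± 0.11 at 1 h, 8.37 ± 0.49 at 6 h and 8.33 ± 0.23 at 24 h after F68/PG/PEG400 (SD, n = 8 each). The median change of the list was 0.32 at 1 h, -0.57 at 6 h and -0.96 at 24 h. F13a1 was at 8.10 ± 0.56, 7.50 ± 0.25 and 6.42 ± 0.30 after Sorafenib at 1, 6 and 24 h, and at 8.05 ± 0.10, 8.18 ± 0.46 and 8.55 ± 0.29 after F68/PG/PEG400. Its change was thus small at 1 h (0.05) and larger at 24 h than at 6 h. The heart of rat 4M46 (Temsirolimus then F68/PG/PEG400, 6 h) stood apart, with a macrophage marker mean of 9.55 against at most 8.37 in the others of that time and a T, NK and B cell marker mean of 7.97 against at most 6.62. At 1 h the heart of rat 6M68 (Temsirolimus then Sorafenib) had a hepatocyte marker mean of 14.31 against at most 7.77.

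The change itself passed for 1019 genes at 6 h, 396 higher and 623 lower in Sorafenib hearts, against 339 at 24 h. Of the 1019, 191 were among the 339. The difference of the change between 24 h and 6 h passed for 24 genes (0.169%), 22 more negative at 24 h, 3 of which were also among the 339. These were F13a1 (difference -1.45, limma adjusted p = 0.000221), Fcmr (-0.61, limma adjusted p = 0.0249) and Cndp1, a carnosine dipeptidase (-0.63, limma adjusted p = 0.00961). Cndp1 changed by 0.10 at 1 h, 0.01 at 6 h and -0.62 at 24 h, and its 24 h groups did not overlap. Its signal was low, at 5.44 ± 0.19 after Sorafenib and 6.06 ± 0.24 after F68/PG/PEG400 at 24 h (SD, n = 8 each). The filter on dim genes asks for a mean of at least 6. The call of Fcmr for this difference was lost without 8M96, 6M71 or 4M42. Without the 6 h heart of 4M46, 32 genes passed, 16 of the 24 among them, and the differences of Csf1r (-0.64, limma adjusted p = 0.00111), C1qa (-0.86, limma adjusted p = 0.00544), C1qb (-0.94, limma adjusted p = 0.00913), C1qc (-0.76), Mrc1 (-0.78) and Fcna (-0.94) passed as well. With all hearts, 1 of the 17 macrophage markers passed for this difference.

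Between 24 h and 1 h the change differed in 401 genes (2.82%), 251 more negative and 150 more positive at 24 h (241 and 222 after repeated quantile normalization), and 155 of them were among the 339. Of the macrophage markers, 15 of 17 passed. The difference was -2.18 for F13a1, -2.07 for Aif1, -1.81 for Lyve1, -1.76 for C1qb, -1.72 for Fcna and -1.74 for Pilra, with limma adjusted p between 5.4e-11 and 0.0225. Phlda1 changed by -0.24 at 1 h, 0.68 at 6 h and 0.73 at 24 h, and its difference between 24 h and 1 h was 0.97 (limma adjusted p = 0.000207). Hlx changed by -0.47 at 1 h, -0.72 at 6 h and -0.49 at 24 h, Spry4 by -0.37, -0.55 and -0.38, and Kdr by -0.27, -0.80 and -0.60, and neither time difference passed for Hlx, Spry4 or Kdr (limma adjusted p between 0.217 and 0.967). The count of 401 was 350 without the 1 h heart of 6M68, 252 of them shared, and among leave-one-out fits it was lowest without 2M23 (141) and 6M72 (165).

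**Figure D4:**
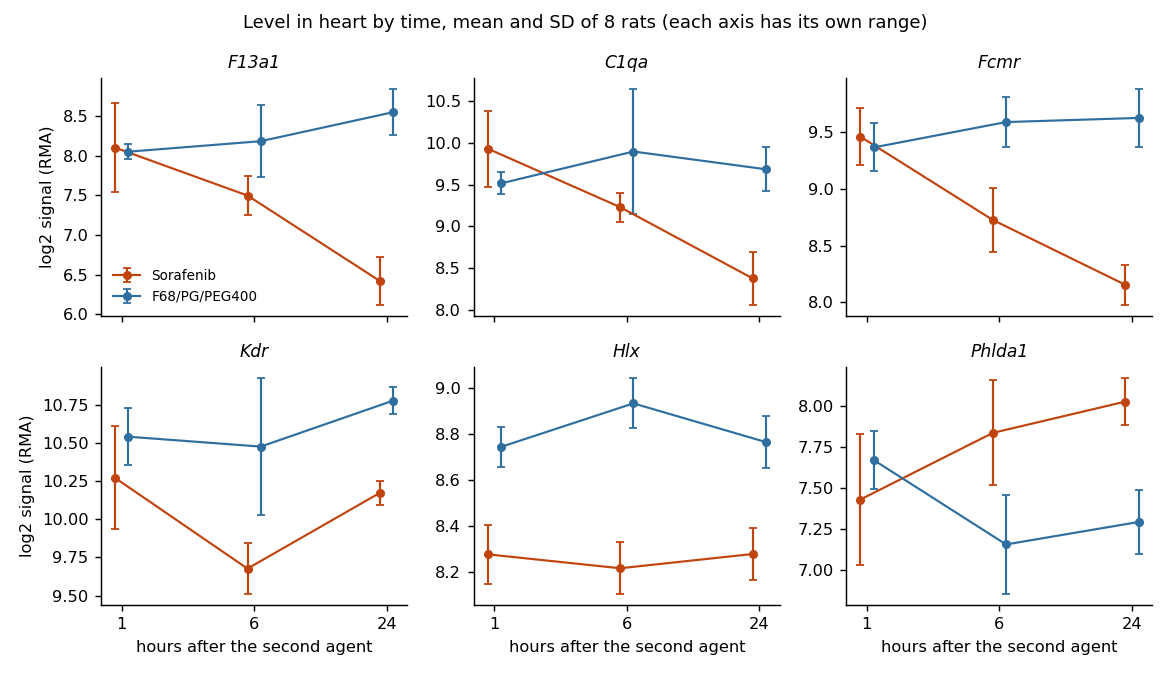
Mean log2 signal (y axis, own range in each panel) of F13a1, C1qa, Fcmr, Kdr, Hlx and Phlda1 in Sorafenib and F68/PG/PEG400 hearts at 1, 6 and 24 h (x axis, with equal steps), bars showing the SD over 8 hearts. For F13a1 the Sorafenib mean was 8.10, 7.50 and 6.42 at the 3 times and the F68/PG/PEG400 mean 8.05, 8.18 and 8.55.

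The same rats gave liver and bone marrow, so that the change could be compared between tissues within the rat. The paper named the 24 h Liver array of rat 4M48 (Temsirolimus then F68/PG/PEG400) a potential outlier by quality measures. Its histology did not set it apart from its group. The range of the counts with single rats left out is given further on. The change at 24 h differed between Heart and Liver in 53 genes (0.373%; 39 more negative and 14 more positive in Heart, or 37 and 22 after repeated quantile normalization), of which 47 were among the 339, and between Heart and Bone Marrow in 616 (4.33%), 195 more negative and 421 more positive in Heart (223 and 355 after repeated quantile normalization), of which 149 were. Of the 17 macrophage markers, 11 passed for the difference from Liver and 15 for that from Bone Marrow, all more negative in Heart. F13a1 changed by -2.13 in Heart, -0.06 in Liver and 0.01 in Bone Marrow, and the differences were -2.07 (limma adjusted p = 8.51e-16) and -2.14 (limma adjusted p = 2.14e-11). C1qb changed by -1.38, -0.10 and 0.11, and Aif1 by -1.59, -0.29 and 0.05, in the same order of tissues. The median change of the list was -0.96 in Heart, -0.16 in Liver and 0.06 in Bone Marrow.

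Lyve1 and Stab1, which the endothelium of liver and marrow sinusoids also makes, fell in Liver, and Stab1 fell in Bone Marrow. Lyve1 changed by -1.43 in Heart, -0.74 in Liver (limma adjusted p = 1.17e-06) and -0.43 in Bone Marrow (limma adjusted p = 0.139), and its difference from Liver (-0.69, limma adjusted p = 0.0283) was lost without any 1 of 8 rats. Stab1 changed by -0.99 in Heart, -0.53 in Liver (limma adjusted p = 0.0133) and -0.77 in Bone Marrow (limma adjusted p = 2.39e-07), and neither difference passed. No other macrophage marker passed in Liver or Bone Marrow alone. Esm1 went opposite ways, by -1.01 in Heart and 0.99 in Liver (limma adjusted p = 0.000773), a difference of -2.00 (limma adjusted p = 9.19e-09). Rbp7 (-1.17 in Heart, 0.08 in Liver), Fxyd2 (-1.07 and 0.05), Pcdh17 (-0.92 and -0.22) and Hlx (-0.49 and -0.08) also passed for the difference from Liver, as did Phlda1 (0.73 and -0.04) and Colq (0.51 and 0.03). Kdr changed by -0.60 in Heart, -0.21 in Liver and -0.44 in Bone Marrow, and neither difference passed (limma adjusted p = 0.375 and 0.733). The median change of the interferon list was 0.29 in Heart, 0.30 in Liver and 0.28 in Bone Marrow.

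**Figure D5:**
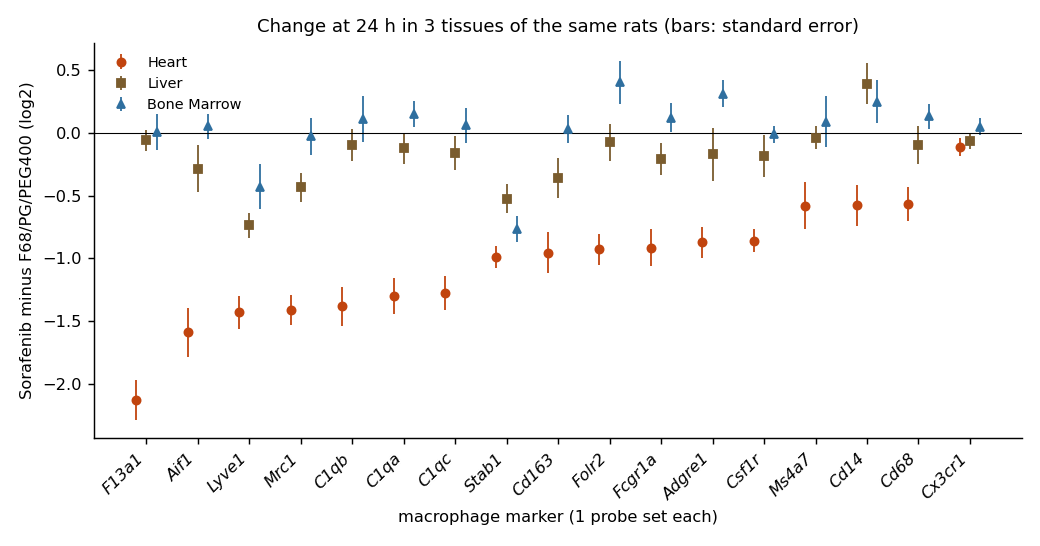
Change in log2 signal at 24 h (Sorafenib minus F68/PG/PEG400, y axis) of the 17 macrophage markers (x axis) in Heart, Liver and Bone Marrow, with the standard error of each change as a bar. F13a1 is at -2.13 in Heart, -0.06 in Liver and 0.01 in Bone Marrow, while Stab1 is below 0 in all 3 tissues (-0.99, -0.53 and -0.77).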

How the data were processed

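Heart, liver and bone marrow RNA of 96 male rats was hybridized to Affymetrix rat genome arrays. The deposited values are log2 signals of 31099 probe sets on 288 arrays, which the authors obtained with RMA (background correction, quantile normalization and median polish); which arrays were normalized together is not given in the sources used here, and the RMA version is not given either. Of 21268 probe sets listed in the annotation used, 20832 named 1 gene and 436 several, and 9831 were not listed; 14218 genes were tested, each by its probe set with the highest mean over the heart arrays.

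Groups were taken from the sample titles. All 96 heart arrays were fitted in limma 3.58.1 (R 4.3.3) with 24 group means and a term for array set within each time, and Sorafenib minus F68/PG/PEG400 was averaged over both first agents. p-values were adjusted by Benjamini-Hochberg over all 14218 genes, with a threshold of 0.05. Tissues were compared through the difference within each rat. Each group holds separate rats, so the number of arrays limits the precision. The fits were tested on simulated data. Genes were named where they were among the 12 largest changes in each direction that passed without overlap, where they were called members of a list (up to 4, in lists with at least 2), where sorafenib binds their product, or where they led a difference between times or tissues (up to 6 each). Single called or uncalled list members given beside these were chosen after their values were seen. The members and the 34 gene lists (617 entries, 565 of them on the arrays, with some genes entered more than once) were chosen with earlier results of these data known. Alternatives were a filter on dim genes, repeated quantile normalization, no array set terms, another probe set, a hepatocyte covariate, the 16 arrays alone, single array sets, hearts left out and unpaired tissues. Promoter sequences are from RefSeq.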

Additional observations from a re-analysis of the deposited data

Results flagged for a closer look

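In groups of 4 hearts, 14 values stood far from the other 3 of their group, among 236 groups tested by Dixon's criterion (critical value 0.829), where chance gives about 1 in 20 groups. After Temsirolimus and Sorafenib, rat 6M65 had a Lyve1 signal of 8.35 (others 8.05 to 8.09) and an Rbp7 signal of 7.26 (others 7.66 to 7.73), and 6M72 had a Tnfrsf12a signal of 8.6 (others 9.0 to 9.08). After TEM_vehicle and Sorafenib, 8M89 had an Rcan1 signal of 12.15 (others 12.39 to 12.41), a Srebf2 signal of 8.75 (others 8.49 to 8.52) and an Araf signal of 9.36 (others 9.74 to 9.75), and 8M90 had an Adamts9 signal of 7.69 (others 8.03 to 8.07). After TEM_vehicle and F68/PG/PEG400, 2M18 had a Phlda1 signal of 7.71 (others 7.23 to 7.28) and a Top2a signal of 7.21 (others 8.4 to 8.48). After Temsirolimus and F68/PG/PEG400, 4M42 had a Mamdc2 signal of 7.39 (others 7.56 to 7.58) and an Idi1 signal of 8.06 (others 7.45 to 7.56), 4M41 had a Spry4 signal of 8.55 (others 8.31 to 8.35) and an Fgfr1 signal of 9.10 (others 8.93 to 8.94), and 4M48 had an Hlx signal of 8.96 (others 8.77 to 8.78).

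The Sorafenib change of some genes differed between times in a test of the difference. It was more negative at 24 h than at 6 h by -1.45 for F13a1, -0.63 for Cndp1 and -0.61 for Fcmr. It was more negative at 24 h than at 1 h by -2.18 for F13a1, -2.07 for Aif1, -1.81 for Lyve1, -1.76 for C1qb, -1.74 for Pilra and -1.72 for Fcna. The change also differed between tissues at 24 h. Heart minus Liver was -2.07 for F13a1, -2.00 for Esm1, -1.30 for Aif1, -1.29 for C1qb, -1.25 for Rbp7 and -1.23 for Fcmr. Heart minus Bone Marrow was -2.14 for F13a1, -1.77 for Fxyd2, -1.67 for Fcmr, -1.64 for Aif1, -1.49 for C1qb and -1.45 for C1qa. For Fxyd2 the change was -1.07 in Heart and 0.69 in Bone Marrow, and that in Bone Marrow did not pass on its own (limma adjusted p = 0.109).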

How the results depend on the processing

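Of 1647 values of 59 named genes over the alternatives, 184 no longer passed and 18 changed sign, all of them in 5 kinases that did not pass. The change of Flt3 was 0.00737 after repeated quantile normalization, 0.0684 in the first array set and 0.0199 without 8M95 and 8M96, and -0.0359 to 0.0374 with 1 heart left out. Kit was at -0.0614 in the first array set and at -0.0219 to 0.0612 with 1 heart left out, Ret at -0.0586 without 8M95 and 8M96 and at -0.00964 to 0.0567 with 1 heart left out, Pdgfrb at 0.0729 in the second array set and Fgfr1 at 0.21 on its most variable probe set. Between 24 h and 6 h, 14 genes passed after repeated quantile normalization (1 more positive, 13 more negative). Between 24 h and 1 h, 234 passed without array set terms, 706 with a hepatocyte covariate, and 463 (222 more positive, 241 more negative) after repeated quantile normalization. After Temsirolimus, 186 passed in the 16 arrays alone and 88 (23 higher, 65 lower) after repeated quantile normalization. Over both first agents, 27 passed in the first array set, 178 in the second, 127 without the 5 hearts with liver transcripts and 133 without 8M95 and 8M96. Heart and Bone Marrow differed in 369 genes without array set terms, and Heart and Liver in 59 (22 more positive and 37 more negative in Heart) after repeated quantile normalization. The cause of these shifts was not tested.

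With 1 heart left out, the counts were 185 to 427 over both first agents, 51 to 145 after Temsirolimus, 20 to 54 after TEM_vehicle, 13 to 26 between 24 h and 6 h (13 without 8M96 or 6M71), 141 to 503 between 24 h and 1 h, 34 to 61 for Heart and Liver (34 without 8M95) and 433 to 650 for Heart and Bone Marrow. The count for the difference between first agents was 0 in each case. Between 24 h and 1 h the count was 141 without 2M23, 165 without 6M72, 227 without 4M42, 236 without 8M95, 239 without 4M48, 243 without 2M24 and 267 without 8M90.

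Tissues are paired because they come from the same rat. Residuals of the same rat had a median correlation of 0.131 (heart and liver) and 0.0961 (heart and marrow). With no replicate block, 43 genes differed between Heart and Liver, 40 of them shared with the paired test, and 621 between Heart and Bone Marrow, 557 of them shared. Labels give no other pairing of rats across groups.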

Other observations

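Genes outside the lists were looked at after their values were seen, so their counts are a description. Of 23 further myeloid genes measured, 15 fell in Sorafenib hearts, against 2.07% of all genes, with a median change of -0.53. Ctss, a lysosomal protease, changed by -0.98 (limma adjusted p = 6.43e-10), Ccr1, a chemokine receptor, by -0.87, Clec10a, a lectin of macrophages and dendritic cells, by -0.79, Cybb, the oxidase subunit of phagocytes, by -0.76, and Maf, a transcription factor of resident macrophages, by -0.74. Cd74 (0.02) and RT1-Da (-0.19), of antigen presentation, Ccr2 (0.10), of recruited monocytes, Itgam (-0.20) and the pan-leukocyte gene Ptprc (-0.33) did not pass. The signal of Ccr2 was low, at 5.82 after Sorafenib and 5.72 after F68/PG/PEG400.

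Of 8 genes of leukotriene and prostaglandin D2 synthesis, 4 fell, all without overlap. Over all genes 2.07% fell, and 0.696% were lower in Sorafenib hearts without overlap. Alox5, which starts leukotriene synthesis, changed by -0.68 (limma adjusted p = 1.13e-09), its partner Alox5ap by -0.83 (limma adjusted p = 5.03e-05), Ltc4s, which makes leukotriene C4, by -0.79 (limma adjusted p = 2.99e-05) and Hpgds, which makes prostaglandin D2, by -0.77 (limma adjusted p = 3.87e-05). Lta4h (-0.05), Ptgs1 (-0.16), Ptgs2 (0.03) and Pla2g4a (0.02) did not pass. These genes are also made by mast cells, of whose 11 measured genes 2 fell, with a median of -0.09. Mcpt1l1, a mast cell protease, changed by -0.86 (limma adjusted p = 0.0113), with no call without 2M23, and Tpsab1, tryptase, by -0.54 (limma adjusted p = 0.0456), with no call without any 1 of 13 hearts. Cpa3 changed by -0.62 (limma adjusted p = 0.0667). Of 4 B cell genes none passed (median -0.05).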
